A study of Mus musculus with 8 samples.

Results

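Feedback regulators of ERK signalling were followed in pancreatic islets with and without Irs2. The set holds 10 genes of the 18193 with a probe set that names a single gene: the MAP kinase phosphatases Dusp4, Dusp5 and Dusp6, the Sprouty genes Spry1, Spry2 and Spry4, the Sprouty-related genes Spred1 and Spred2, and the ETS transcription factors Etv4 and Etv5. They were chosen by symbol, with earlier results of these data known. Where several probe sets name a gene the one of greatest mean signal was used. All 10 lay above the level under which genes were left out of the tests (log2 5.27, the 40th percentile of the probe sets). Islet RNA came from male C57Bl/6 mice of 13 weeks of age in 4 groups with 2 arrays each: Irs2-/- on sodium tungstate, Irs2-/- untreated, wild type on sodium tungstate and wild type untreated. Treatment ran for 21 days from 10 weeks of age in the drinking water, and untreated mice drank distilled water. The tungstate concentration is given as 2 mg/ml in the study's design and as 2 mg/dl on the sample labels, and was not settled here. No label tells if a sample holds islets of 1 mouse or of several, so the p-values speak only of the spread between samples, which may be technical. The sources used here do not describe the Irs2 construct, and the labels name no other allele in either genotype.

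ERK is the last kinase of a cascade that runs from growth factor receptors through RAS, RAF and MEK. Active ERK switches on genes whose products then restrain it: DUSP phosphatases remove the activating phosphates from ERK itself, and Sprouty and SPRED proteins act upstream of it, at the level of RAS and RAF. Etv4 and Etv5 are transcription factors of the PEA3 subfamily, made in response to FGF and ERK signals, and they in turn drive target genes. In beta cells ERK responds to glucose and to incretin and growth factor signals, and Irs2 is one of the adaptors through which insulin and IGF-1 receptors act. The arrays measured mRNA. ERK activity itself was not measured.

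Values are log2 signals as deposited, and each difference is given as log2 ± standard error (SE) from a limma fit over all 8 arrays, with 2 arrays in each group. The SE uses a spread pooled over the groups and moderated across genes. Adjusted p-values are limma's, by Benjamini and Hochberg over 13369 tested genes, with a threshold of 0.05. Irs2 read between 4.54 and 4.89 on the 4 Irs2-/- arrays and between 7.61 and 7.91 on the 4 wild-type arrays. The islet hormone genes Ins2, Gcg (glucagon), Sst (somatostatin) and Ppy (pancreatic polypeptide) read at least 12.44 on all 8 arrays, and Ins2, at 14.72 to 14.75, lay near the top of the array's range. Sst was lower in untreated Irs2-/- than in untreated wild-type islets (-1.35 ± 0.13, limma adjusted p = 0.00181). Ins2, Gcg and Ppy were not called in that comparison. Whole islets were measured, so fewer cells of a type and less RNA per cell cannot be told apart.

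The nuclear and cytoplasmic phosphatases of ERK carried the largest genotype differences of the set in untreated mice. Dusp6 (chr10:99263231-99267489, GRCm38.p6) encodes a cytoplasmic phosphatase that acts on ERK with high selectivity. It read 9.78 and 9.20 in treated Irs2-/- islets, 10.50 and 10.59 in untreated Irs2-/- islets, 8.02 and 7.70 in treated wild-type islets and 8.34 and 8.26 in untreated wild-type islets. All 4 Irs2-/- arrays lay above all 4 wild-type arrays, and the untreated Irs2-/- arrays were the highest. In untreated mice Dusp6 was 4.73-fold higher without Irs2 (2.24 ± 0.20, limma adjusted p = 0.00127). Under tungstate it was 3.09-fold higher (1.63 ± 0.20, limma adjusted p = 0.0199). The call under tungstate was lost without treated Irs2-/- replicate 1 (1.34 ± 0.17, limma adjusted p = 0.0606) and without treated wild-type replicate 1 or 2 (1.79 ± 0.24 and 1.47 ± 0.24, limma adjusted p = 0.184 and 0.185).

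Dusp4 (chr8:34807610-34819894) encodes a nuclear phosphatase of ERK and other MAP kinases. It read 6.75 and 7.30 in treated Irs2-/- islets, 8.32 and 7.90 in untreated Irs2-/- islets, 6.38 and 6.04 in treated wild-type islets and 6.38 and 6.29 in untreated wild-type islets. The untreated Irs2-/- arrays again stood highest, and the treated Irs2-/- arrays lay between them and the wild-type arrays without overlap. The genotype difference in untreated mice was 1.78 ± 0.22, or 3.43-fold (limma adjusted p = 0.00352). Under tungstate it was 0.81 ± 0.22 and did not pass (limma adjusted p = 0.119). Without replicate 1 of both untreated groups, a pair of arrays that stood apart in marker levels and were left out after the values were seen, the untreated difference was 1.61 ± 0.31 (limma adjusted p = 0.0538).

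Dusp5, a nuclear phosphatase specific for ERK, read 8.72 and 8.14 in treated Irs2-/- islets, 9.30 and 8.63 in untreated Irs2-/- islets, 7.99 and 7.70 in treated wild-type islets and 8.10 and 8.35 in untreated wild-type islets. Its replicates were spread more widely than those of Dusp6 in untreated Irs2-/- islets, and the genotypes did not overlap within either treatment. The untreated genotype difference of 0.74 ± 0.26 did not pass (limma adjusted p = 0.0934), nor did the one under tungstate (0.59 ± 0.26, limma adjusted p = 0.33). The untreated difference was 0.40 ± 0.26 without untreated Irs2-/- replicate 1 (limma adjusted p = 0.365) and 1.07 ± 0.26, past the threshold, without its replicate 2 (limma adjusted p = 0.0429). Without replicate 1 of both untreated groups it was 0.28 ± 0.31 (limma adjusted p = 0.681), and under tungstate it was 0.30 ± 0.28 without treated Irs2-/- replicate 1 (limma adjusted p = 0.697).

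Promoters of Dusp4, Spry4 and Etv4 were not examined, so the motif counts below do not cover these genes. Promoters of the other 7 of the 10 genes were taken from RefSeq sequences (GRCm38.p6, 250 bases before to 50 after each annotated start). These were 8 promoters, because Etv5 has a pair of starts. Those of Dusp6, which had the largest difference, and of Dusp5 and Spry2, which hold motifs known from ERK-responsive promoters, are printed 5′ to 3′ in the direction of transcription, with motif matches in capitals. These windows lie at chr10:99262981-99263280 (plus strand) for Dusp6, chr19:53528895-53529194 (plus strand) for Dusp5 and chr14:105896770-105897069 (minus strand) for Spry2.
Dusp6: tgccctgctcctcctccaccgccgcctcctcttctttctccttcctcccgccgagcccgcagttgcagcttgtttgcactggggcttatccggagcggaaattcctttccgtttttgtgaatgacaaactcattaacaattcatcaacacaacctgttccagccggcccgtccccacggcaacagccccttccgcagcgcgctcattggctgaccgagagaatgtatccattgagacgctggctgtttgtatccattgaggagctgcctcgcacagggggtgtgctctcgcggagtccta
Dusp5: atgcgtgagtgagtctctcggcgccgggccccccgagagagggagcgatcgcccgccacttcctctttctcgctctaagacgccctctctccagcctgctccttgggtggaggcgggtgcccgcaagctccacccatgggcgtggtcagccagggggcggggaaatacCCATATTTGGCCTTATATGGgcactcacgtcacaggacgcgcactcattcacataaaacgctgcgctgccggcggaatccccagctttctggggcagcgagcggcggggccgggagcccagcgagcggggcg
Spry2: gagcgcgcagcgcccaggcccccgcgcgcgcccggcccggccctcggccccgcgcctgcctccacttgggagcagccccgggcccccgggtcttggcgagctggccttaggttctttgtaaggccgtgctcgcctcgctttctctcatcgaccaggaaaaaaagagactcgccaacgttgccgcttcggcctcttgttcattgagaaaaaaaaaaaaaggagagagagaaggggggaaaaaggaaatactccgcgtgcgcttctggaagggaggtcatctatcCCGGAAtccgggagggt
The capitals in Dusp5 are 2 adjacent CArG boxes, the element bound by serum response factor, and they begin 82 and 72 bases before the annotated start. A CArG box is held by 1.63% of all 32851 mouse promoters of this length. The capitals in Spry2 are CCGGAA, the ETS core GGAA with CC before it, 33 bases after the start. This longer string is held by 14.9% of promoters on either strand. Neither the CArG box nor CCGGAA was found in the printed Dusp6 window, though GGAA without CC before it occurs there. The AP-1 site TGACTCA (5.2% of promoters), the CRE TGACGTCA (1.79%) and TATAAA (13.6%) were in 0 of the 8 promoters on either strand, while the GC box GGGCGG was in 5 (35.7% of all promoters). These are matches of letters in a short window, and binding was not measured.

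Sprouty genes differed by less, and none passed the test within a treatment. Spry2, an inhibitor of receptor tyrosine kinase signalling to RAS, read 7.49 and 6.73 in treated Irs2-/- islets, 7.57 and 7.48 in untreated Irs2-/- islets, 6.49 and 6.51 in treated wild-type islets and 6.95 and 6.68 in untreated wild-type islets. The genotypes did not overlap within either treatment, although treated Irs2-/- replicate 2 lay below an untreated wild-type array. Its genotype difference was 0.72 ± 0.23 in untreated mice (limma adjusted p = 0.067) and 0.61 ± 0.23 under tungstate (limma adjusted p = 0.236). Under tungstate it was 0.23 ± 0.15 without treated Irs2-/- replicate 1 (limma adjusted p = 0.567) and 0.99 ± 0.15, past the threshold, without its replicate 2 (limma adjusted p = 0.0184). In untreated mice it passed without either treated Irs2-/- array (0.72 ± 0.13, limma adjusted p = 0.0115 for each), and without 1 of the untreated arrays it was 0.58 to 0.85 and did not pass.

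Spry4, a Sprouty protein known as an early target of FGF signals, had tight replicates. It read 6.38 and 6.51 in treated Irs2-/- islets, 6.51 and 6.41 in untreated Irs2-/- islets, 5.75 and 5.85 in treated wild-type islets and 6.07 and 6.22 in untreated wild-type islets. All 4 Irs2-/- arrays lay above all 4 wild-type arrays. The difference was 0.32 ± 0.12 in untreated mice (limma adjusted p = 0.104) and 0.64 ± 0.12 under tungstate, just short of the threshold (limma adjusted p = 0.0534). Without 1 of the treated arrays the latter was 0.57 to 0.71. Without replicate 1 of both untreated groups the untreated difference was 0.19. Another Spry4 probe set above the filter level gave 0.13 ± 0.14 in untreated mice and 0.33 ± 0.14 under tungstate.

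Spry1, a Sprouty inhibitor of the same kind, read 7.47 and 6.89 in treated Irs2-/- islets, 7.41 and 6.96 in untreated Irs2-/- islets, 6.71 and 6.41 in treated wild-type islets and 6.94 and 6.88 in untreated wild-type islets. Its replicates were further apart within each Irs2-/- group than the untreated genotypes were from each other, though the genotypes did not overlap within either treatment. The genotype differences were 0.27 ± 0.23 in untreated mice and 0.62 ± 0.23 under tungstate (limma adjusted p = 0.457 and 0.229). The untreated one was 0.043 ± 0.25 without untreated Irs2-/- replicate 1 and 0.49 ± 0.25 without its replicate 2, and the one under tungstate was 0.32 ± 0.22 without treated Irs2-/- replicate 1.

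Spred1 and Spred2 encode membrane proteins that bring the RAS-inactivating protein neurofibromin to RAS. Spred1 read 6.40 and 6.21 in treated Irs2-/- islets, 6.72 and 6.37 in untreated Irs2-/- islets, 6.01 and 5.83 in treated wild-type islets and 6.38 and 6.00 in untreated wild-type islets. Spred2 read 9.09 and 8.97 in treated Irs2-/- islets, 9.11 and 9.10 in untreated Irs2-/- islets, 8.86 and 8.59 in treated wild-type islets and 9.00 and 8.79 in untreated wild-type islets. The Irs2-/- arrays of each gene lay above the wild-type arrays under tungstate, and in untreated mice Spred2 did not overlap while Spred1 did. The untreated genotype differences were 0.36 ± 0.18 for Spred1 and 0.21 ± 0.14 for Spred2 (limma adjusted p = 0.198 and 0.334). Under tungstate they were 0.39 ± 0.18 and 0.31 ± 0.14 (limma adjusted p = 0.337 and 0.322). In untreated mice Spred1 was 0.19 ± 0.20 without Irs2-/- replicate 1 and 0.17 ± 0.20 without wild-type replicate 2, and 0.53 to 0.55 without the other array of either group. Spred2 was 0.10 ± 0.17 without untreated wild-type replicate 2 and 0.17 ± 0.16 under tungstate without treated wild-type replicate 2.

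The ETS factors parted. Etv5 read 8.27 and 7.98 in treated Irs2-/- islets, 8.17 and 7.90 in untreated Irs2-/- islets, 7.40 and 7.15 in treated wild-type islets and 7.56 and 7.47 in untreated wild-type islets. Every Irs2-/- array lay above every wild-type array, and the Irs2-/- arrays overlapped between treatments. Its genotype difference was 0.52 ± 0.16 in untreated mice (limma adjusted p = 0.0568) and 0.86 ± 0.16 under tungstate (limma adjusted p = 0.0521), close to the threshold in each. Without 1 of the untreated arrays the untreated difference was 0.39 to 0.66, lowest without untreated Irs2-/- replicate 1. Under tungstate the difference was 0.71 without treated Irs2-/- replicate 1 and 0.73 without treated wild-type replicate 2. It rose when the other array of either treated group was left out. Another Etv5 probe set above the filter level gave 0.16 ± 0.36 in untreated mice and 0.34 ± 0.36 under tungstate.

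Etv4 read 6.26 and 6.35 in treated Irs2-/- islets, 6.06 and 6.37 in untreated Irs2-/- islets, 6.42 and 6.60 in treated wild-type islets and 6.09 and 6.25 in untreated wild-type islets. The untreated groups overlapped (0.04 ± 0.14, limma adjusted p = 0.868). Under tungstate the Irs2-/- arrays were below the wild-type arrays (-0.21 ± 0.14, limma adjusted p = 0.541), on the opposite side of 0 to the other 9 genes and without overlap, as 25.7% of tested genes were.

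**Figure D1:**
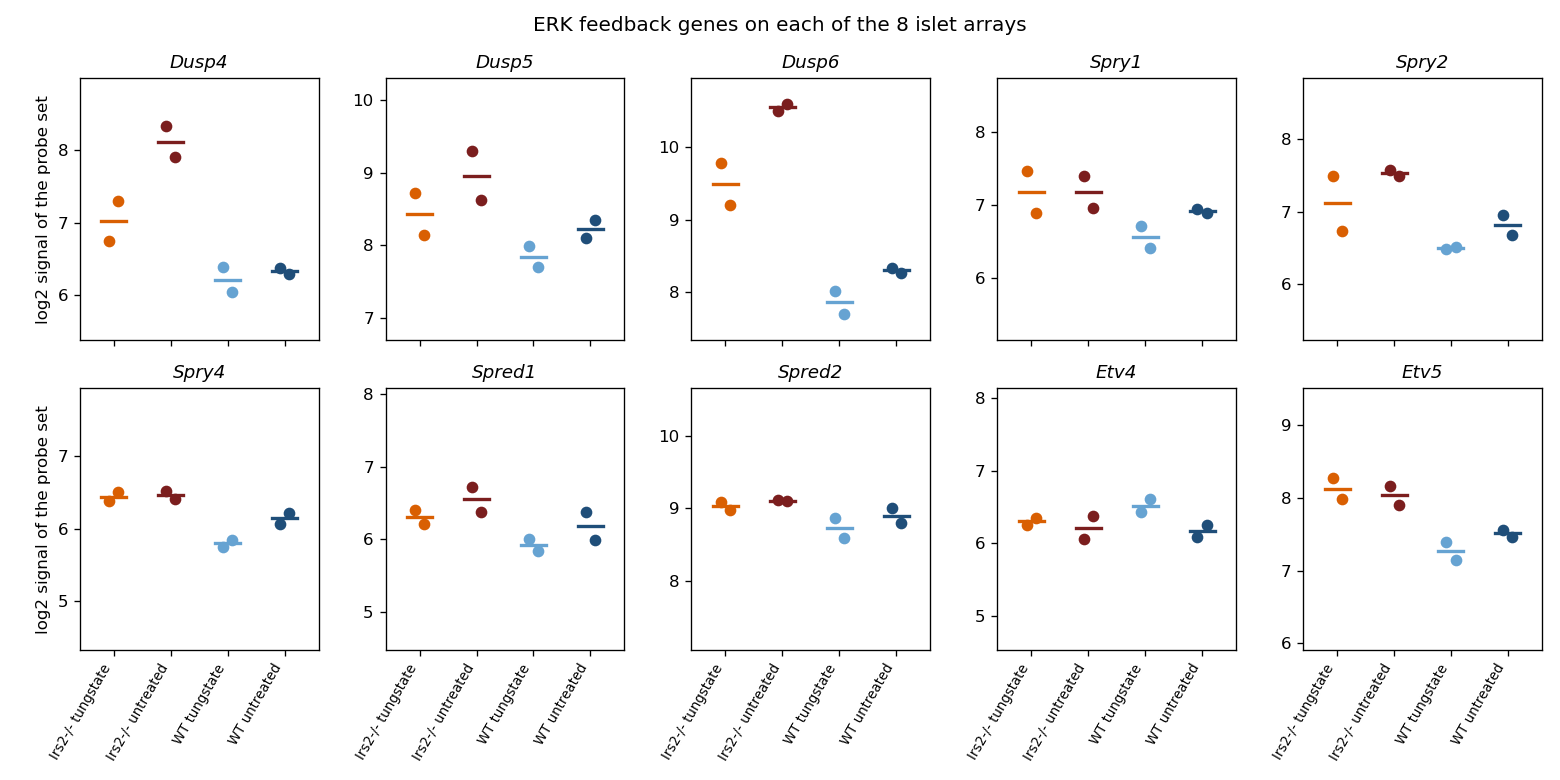
Log2 signal of each ERK feedback gene (1 panel per gene, all with the same span of the axis) on the 8 islet arrays, by group from treated Irs2-/- at the left to untreated wild type at the right. Points are arrays and lines are means of 2 arrays; Dusp6 and Dusp4 stand highest in untreated Irs2-/- islets (10.50 and 10.59, and 8.32 and 7.90), and Etv5 and Spry4 stand above wild type in both Irs2-/- groups.

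Set against all genes, the untreated genotype comparison called 2 of the 10 genes, Dusp4 and Dusp6, both higher, where 16.8% of tested genes were called (8.27% higher). A share of 2 in 10 is near that background. All 10 differences were above 0, with a median of 0.44 against -0.01 over all tested genes. The arrays of 8 genes were higher without overlap, where 28.9% of tested genes were. Under tungstate 1 of the 10 was called, Dusp6, against 1.02% of tested genes (0.636% higher), and the median was 0.61 against -0.01. Arrays of 9 genes were higher without overlap (22.4% of tested genes), all but Etv4.

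Averaging the genotype difference over both treatments sets 4 arrays against 4 and was added after the values were seen. In that comparison 6 of the 10 genes rose, where 22.1% of tested genes were called and 10.9% rose: Dusp6 (1.93 ± 0.14, limma adjusted p = 0.000446), Dusp4 (1.30 ± 0.16, limma adjusted p = 0.0022), Etv5 (0.69 ± 0.11, limma adjusted p = 0.00559), Spry4 (0.48 ± 0.08, limma adjusted p = 0.00745), Spry2 (0.66 ± 0.16, limma adjusted p = 0.0234) and Dusp5 (0.66 ± 0.19, limma adjusted p = 0.0392). Spry1, Spred1 and Spred2 did not pass (0.44 ± 0.16, 0.37 ± 0.12 and 0.26 ± 0.10, limma adjusted p = 0.0834, 0.0667 and 0.0916). Etv4 was -0.08 ± 0.10 (95% interval -0.32 to 0.15, limma adjusted p = 0.596). All 4 Irs2-/- arrays lay above all 4 wild-type arrays for Dusp4, Dusp6, Spry4 and Etv5, a pattern that 9.55% of tested genes had. These 3 comparisons share arrays and are not independent of each other.

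The averaged calls of Dusp5 and Spry2 depended on single arrays. Dusp5 was lost without replicate 1 of either Irs2-/- group or without any wild-type array (limma adjusted p between 0.0659 and 0.134), and with the acinar marker level as a covariate (0.70 ± 0.25, limma adjusted p = 0.108). Spry2 was lost without untreated Irs2-/- replicate 1, untreated wild-type replicate 2 or either treated wild-type array (limma adjusted p between 0.0599 and 0.0805). Spry1 passed without treated Irs2-/- replicate 2 (0.59 ± 0.14, limma adjusted p = 0.0246), and Spred1 without untreated Irs2-/- replicate 2 (0.46 ± 0.13, limma adjusted p = 0.0467) and with the acinar covariate (0.57 ± 0.12, limma adjusted p = 0.0221). With the replicate block both Spry1 and Spred1 passed (limma adjusted p = 0.0242 and 0.0175). Spry4 was lost without replicate 1 of both untreated groups (0.42 ± 0.11, limma adjusted p = 0.0637). The call of Etv5 was lost when its single-gene probe sets were averaged (0.34 ± 0.15, limma adjusted p = 0.151). Other probe sets of Etv5 and Spry4 gave smaller differences. A probe set of Etv5 with a lower mean gave 0.25 ± 0.25 (limma adjusted p = 0.627 over all probe sets), and a lower probe set of Spry4 gave 0.23 ± 0.10 (limma adjusted p = 0.195). Of the 28 probe sets of the 10 genes, 17 lay above the filter level. Of these, 7 were not the main probe set. For the genotype difference 6 of the 7 had the direction of the main one in untreated mice and 5 under tungstate. For tungstate against untreated 2 of the 7 did so in Irs2-/- islets and 2 in wild-type islets. Dusp4, Dusp5, Dusp6 and Spry1 have a single probe set each and no such check.

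**Figure D2:**
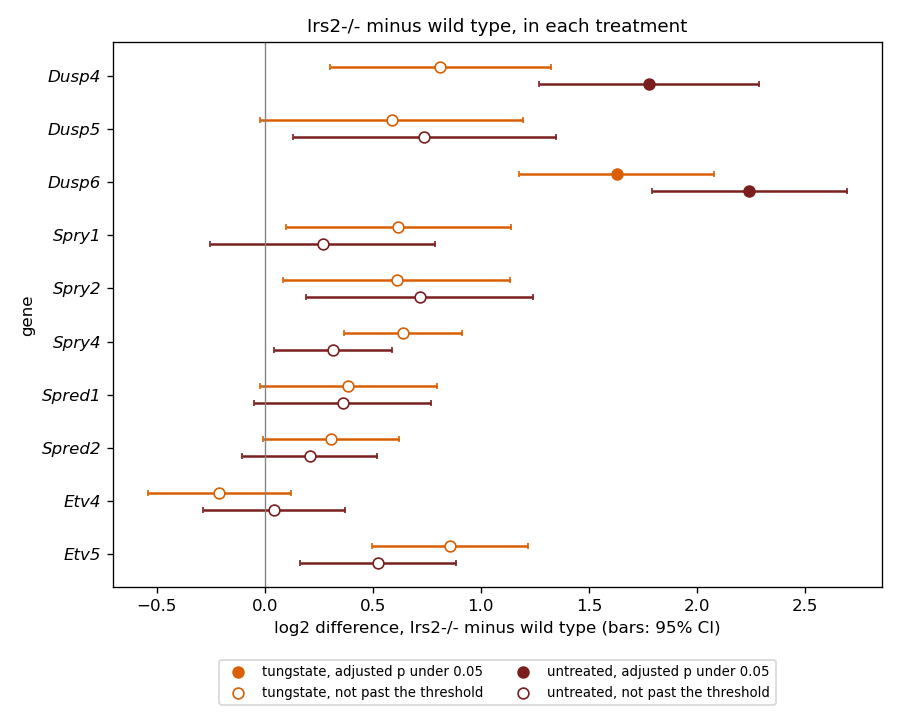
Log2 difference, Irs2-/- minus wild type, for each gene under tungstate (upper, orange) and untreated (lower, dark red). Bars are 95% confidence intervals, not adjusted for the number of genes, and filled points passed the adjusted threshold: Dusp6 in both treatments and Dusp4 in untreated mice.

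The untreated Irs2-/- arrays enter the untreated genotype comparison and, with the opposite sign, the tungstate comparison in Irs2-/- islets, so these are not independent. The largest tungstate differences among the 10 genes were those of Dusp6 and Dusp4 in Irs2-/- islets, both towards wild type, and neither passed the test. There Dusp6 was -1.06 ± 0.20 (0.481 times its untreated level, limma adjusted p = 0.086) and Dusp4 -1.09 ± 0.22 (0.471 times, limma adjusted p = 0.102), with no overlap between treated and untreated arrays for either gene or for Spred2 (-0.07 ± 0.14), where 22.9% of tested genes were lower without overlap. Dusp5 and Spry2 were -0.53 ± 0.26 and -0.42 ± 0.23 with overlapping arrays. Spry4, Spry1 and Etv5 were near 0, at -0.02 ± 0.12, -0.0018 ± 0.23 and 0.09 ± 0.16, with 95% intervals of -0.29 to 0.25, -0.52 to 0.52 and -0.27 to 0.45. None of the 10 was called, where 0.494% of tested genes were. Limma's unadjusted p was under 0.05 for 2 of the 10, and for 1780 of the 13369 tested genes. Without treated Irs2-/- replicate 1 Dusp6 passed (-1.34 ± 0.17, limma adjusted p = 0.0255).

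In wild-type islets 9 of the 10 genes read lower under tungstate on average, and none passed (limma adjusted p = 1 for each; the unadjusted p was under 0.05 for 2). Of the 7 other probe sets of these genes above the filter level, 2 had the direction of the main one. No tested gene passed in wild-type islets (0%, 0 of 13369 with limma), although 364 had an unadjusted p under 0.05. The median of the 10 was -0.29 against -0.03 over all tested genes. Differences ran between -0.44 ± 0.20 for Dusp6 and 0.34 ± 0.14 for Etv4, the gene on the other side, whose arrays were higher without overlap (15.2% of tested genes). Spry4 was -0.34 ± 0.12. Treated arrays lay below untreated ones without overlap for 6 genes, Dusp5, Dusp6, Spry1, Spry2, Spry4 and Etv5, where 21.9% of tested genes did so.

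Whether tungstate acted differently by genotype was tested as an interaction with limma, which called 0 of the 10 genes and 0.0224% of all tested genes. Limma's unadjusted p was under 0.05 for 1 of the 10, and for 862 of the 13369 tested genes. The interaction was -0.97 ± 0.31 for Dusp4 (limma adjusted p = 0.692) and -0.61 ± 0.28 for Dusp6 (limma adjusted p = 0.783). For Spry4 and Etv5 it was 0.32 ± 0.17 and 0.33 ± 0.22 (limma adjusted p = 0.816 and 0.856). A different response of the genotypes was therefore not shown for any of them.

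Treated Irs2-/- islets were also set against untreated wild-type islets. Dusp6 was 1.19 ± 0.20 (limma adjusted p = 0.0607), Dusp4 0.69 ± 0.22 (limma adjusted p = 0.161), Etv5 0.62 ± 0.16 (limma adjusted p = 0.11) and Spry4 0.30 ± 0.12 (limma adjusted p = 0.23). The arrays of these 4 genes and of Etv4 did not overlap (higher in 19.8% of tested genes). None of the 10 was called (0.352% of tested genes were). Limma's unadjusted p was under 0.05 for 4 of the 10, and for 2489 of the 13369 tested genes. Without treated Irs2-/- replicate 2 Dusp6 passed (1.47 ± 0.17, limma adjusted p = 0.00728).

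**Figure D3:**
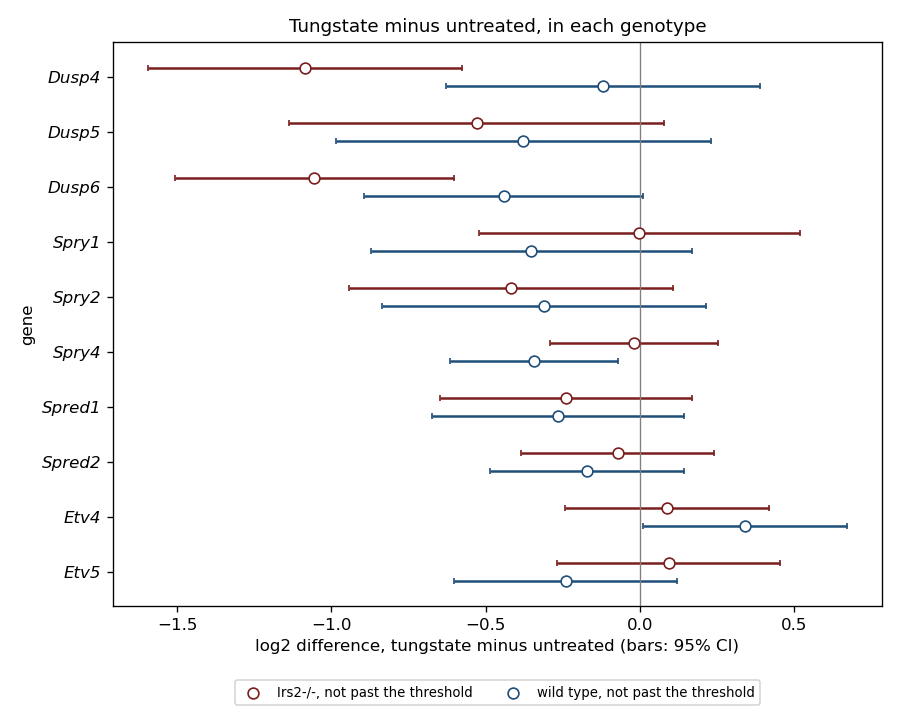
Log2 difference, tungstate minus untreated, for each gene in Irs2-/- islets (upper, dark red) and wild-type islets (lower, blue), with unadjusted 95% confidence intervals. No point passed the adjusted threshold; Dusp4 and Dusp6 in Irs2-/- islets lay at -1.09 and -1.06.

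Markers of other cell types moved over the same arrays. All 10 tested macrophage markers rose in untreated Irs2-/- islets, and 6 of them fell with tungstate there, so the order of the Irs2-/- groups was that of Dusp6 and Dusp4. The mean level of the 11 measured macrophage markers was 7.33 and 7.39 in treated Irs2-/- islets, 8.39 and 8.58 in untreated Irs2-/- islets, 7.02 and 6.97 in treated wild-type islets and 7.16 and 6.94 in untreated wild-type islets. With this level as a covariate the untreated genotype difference was 2.00 ± 1.41 for Dusp6 and 1.96 ± 1.59 for Dusp4. The SE grew, and neither passed (limma adjusted p = 0.998 for each, where 0 of 13369 genes were called). Over the 10 genes the difference then ran from -0.55 ± 0.94 for Spred2 to 3.89 ± 1.44 for Dusp5. The macrophage level itself did not overlap between the untreated genotypes, so this fit cannot tell the part of macrophages from that of genotype.

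The mean level of endothelial markers stood high in both Irs2-/- groups, as Etv5 and Spry4 did, and so did that of duct markers. Single endothelial markers varied in untreated mice. Ramp2 was 1.69 ± 0.20, while Kdr, Flt1 and Emcn were 0.08 ± 0.15, -0.04 ± 0.14 and 0.0073 ± 0.15 with overlapping arrays. Of 12 tested, 11 were above 0. The mean of 13 endothelial markers was 8.64 and 8.25 in treated Irs2-/- islets, 8.36 and 8.35 in untreated Irs2-/- islets, 7.70 and 7.83 in treated wild-type islets and 7.85 and 7.91 in untreated wild-type islets, so the genotypes did not overlap. Of 12 tested endothelial markers 3 rose in untreated Irs2-/- islets and 3 in treated ones. Fibroblast and stellate markers rose in 2 of 12 cases in each treatment, with mean levels of 7.63 to 8.60 over the Irs2-/- arrays and 6.33 to 8.07 over the wild-type arrays. Duct markers rose in 4 of 8 cases in untreated mice, with mean levels of 8.29 to 8.66 in Irs2-/- and 8.09 to 8.21 in wild-type islets.

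Lymphocyte markers rose in 3 of 10 cases and proliferation markers in 2 of 9 in untreated Irs2-/- islets. Both lists had their highest mean, 8.18 and 7.66, on untreated Irs2-/- replicate 1, the array with the highest Dusp4 and Dusp5 values. Over the wild-type arrays the same means were 5.39 to 6.73 and 5.72 to 6.26. Of the beta cell markers 6 of 10 fell and 1 rose in untreated Irs2-/- islets, with mean levels of 10.91 to 11.65 over the Irs2-/- arrays and 11.93 to 12.01 over the wild-type arrays. Markers of other islet endocrine cells fell in 2 of 6 cases in untreated Irs2-/- islets, and none rose. The 18S control read 10.63 to 11.92 over the Irs2-/- arrays and 11.75 to 12.70 over the wild-type arrays. The 3' minus 5' signal, which is larger in more degraded RNA, was lowest on the untreated Irs2-/- arrays, where Dusp4 and Dusp6 were highest. For actin it was 0.732 and 0.937 there, against 0.960 to 1.12 on the other 6 arrays. For Gapdh it was 0.415 and 0.367, against 0.423 to 0.575.

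Acinar markers were uneven within groups, at 9.21 and 12.47 in the untreated wild-type islets, and 1 of 13 rose in untreated Irs2-/- islets. Adding the acinar level as a covariate gave untreated genotype differences of 2.33 ± 0.23 for Dusp6 and 1.81 ± 0.27 for Dusp4 (limma adjusted p = 0.00289 and 0.00954). With it the averaged call of Dusp5 was lost and Spred1 passed, as given above. The part of the other cell types, of the 18S signal and of the 3' minus 5' signal in the differences of the 10 genes was not tested.

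**Figure D4:**
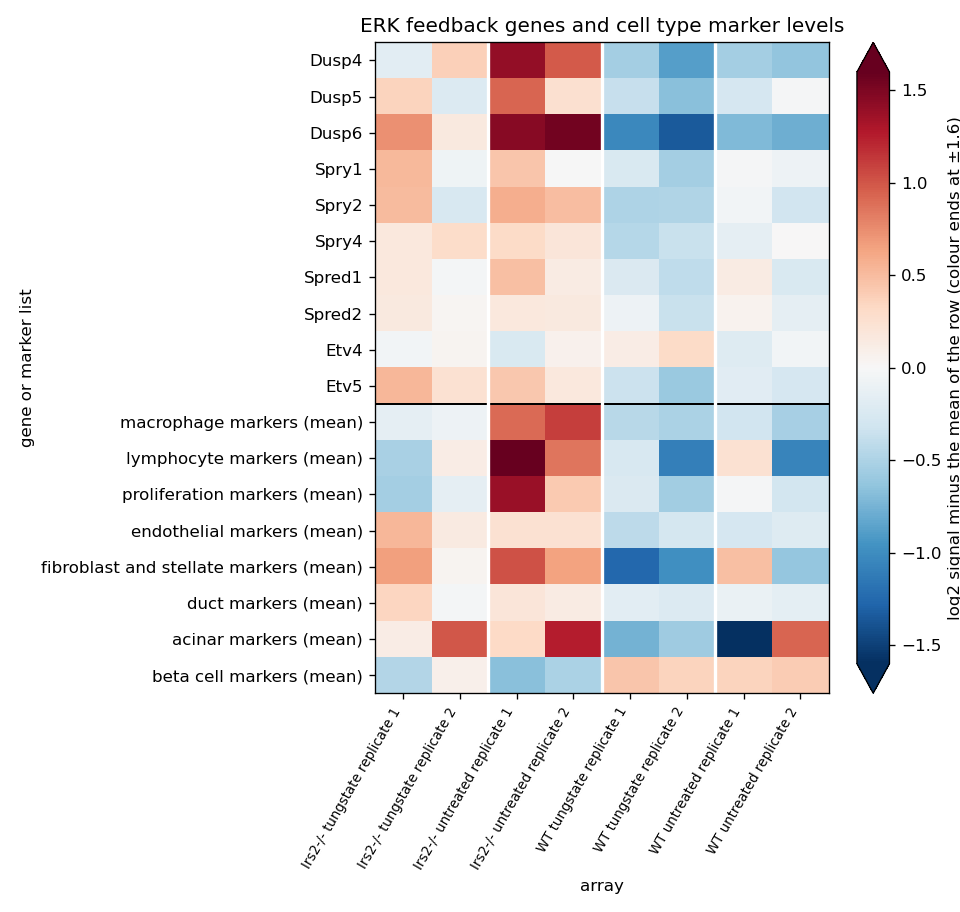
Each row shows 1 ERK feedback gene, or below the line the mean of 1 marker list, on the 8 arrays as log2 signal minus the mean of its row. Macrophage markers are highest on the untreated Irs2-/- arrays (8.39 and 8.58), where Dusp4 and Dusp6 are too, and endothelial markers stand higher in both Irs2-/- groups (8.25 to 8.64) than in wild type (7.70 to 7.91).

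Of 96 tested genes in 7 other lists of the ERK pathway 21 were called in untreated mice, 21.9% against 16.8% of all tested genes, with called genes on both sides of 0. Among 10 other DUSP phosphatases 2 rose in untreated Irs2-/- islets, Dusp14 (0.67 ± 0.13, limma adjusted p = 0.0155) and Dusp16, which acts on JNK (0.63 ± 0.16, limma adjusted p = 0.0329). Dusp14 read 6.89 and 7.12 in treated Irs2-/- islets, 7.70 and 7.55 in untreated Irs2-/- islets, 6.97 and 7.16 in treated wild-type islets and 6.97 and 6.95 in untreated wild-type islets, so it was raised on the untreated Irs2-/- arrays alone. Among 12 tested other inhibitors 2 rose and 1 fell. Spred3, the remaining member of the SPRED family, rose by 0.93 ± 0.19 (limma adjusted p = 0.0163) and the RAS GTPase-activating gene Rasa3 by 1.72 ± 0.36 (limma adjusted p = 0.0195). Pebp1, which encodes the RAF kinase inhibitor protein, fell by 0.43 ± 0.11 (limma adjusted p = 0.0356).

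In the cascade itself 1 of 11 tested genes rose, the RAS-related gene Rras2 (0.83 ± 0.17, limma adjusted p = 0.0163), and 1 fell, the kinase gene Braf (-0.42 ± 0.11, limma adjusted p = 0.0338). Among 13 adaptors and exchange factors Rasgrp1 and Rasgrp2, exchange factor genes best known from blood cells, rose by 1.61 ± 0.42 and 0.74 ± 0.16 (limma adjusted p = 0.037 and 0.022). The adaptor gene Shc1 fell by 0.45 ± 0.12 (limma adjusted p = 0.0429).

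Of 16 tested receptors 2 rose and 2 fell. Met, the receptor of hepatocyte growth factor, read 8.85 and 8.73 in treated Irs2-/- islets, 8.67 and 8.79 in untreated Irs2-/- islets, 7.51 and 7.61 in treated wild-type islets and 7.91 and 7.34 in untreated wild-type islets. It rose in untreated mice (1.10 ± 0.18, limma adjusted p = 0.00948) and under tungstate (1.23 ± 0.18, limma adjusted p = 0.0307), and it was the 1 gene of these 7 lists called for genotype under tungstate. Pdgfrb, a receptor of stromal cells that is also in the fibroblast and stellate list, rose by 0.90 ± 0.24, while Ret and the insulin receptor gene Insr fell by 0.86 ± 0.17 and 0.47 ± 0.13 (limma adjusted p = 0.0418, 0.0145 and 0.0484). Of 12 ligands Igf1 rose by 1.19 ± 0.27 (limma adjusted p = 0.0239), while Vegfa, Tgfa and Pdgfa fell by 0.90 ± 0.17, 0.84 ± 0.14 and 0.57 ± 0.14 (limma adjusted p = 0.014, 0.009 and 0.0318).

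Other genes known to respond to ERK rose in 3 of 22 cases in untreated Irs2-/- islets. Plaur, the urokinase receptor, read 6.92 and 6.66 in treated Irs2-/- islets, 8.29 and 8.15 in untreated Irs2-/- islets, 6.20 and 6.24 in treated wild-type islets and 6.26 and 6.24 in untreated wild-type islets. It rose in untreated Irs2-/- islets (1.97 ± 0.12, limma adjusted p = 0.00048) and fell there with tungstate (-1.43 ± 0.12, limma adjusted p = 0.00626), and it was the 1 gene of these 7 lists called for tungstate in either genotype. The AP-1 gene Fosl2 rose by 1.40 ± 0.37 and Phlda1 by 0.51 ± 0.13 in untreated mice (limma adjusted p = 0.0381 and 0.0318). The medians in untreated mice were 0.10 for the other phosphatases, 0.02 for the other inhibitors, -0.14 for the cascade, -0.14 for adaptors, 0.14 for receptors, 0.35 for ligands and 0.20 for response genes, beside 0.44 for the feedback genes and -0.01 for all tested genes.

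**Figure D5:**
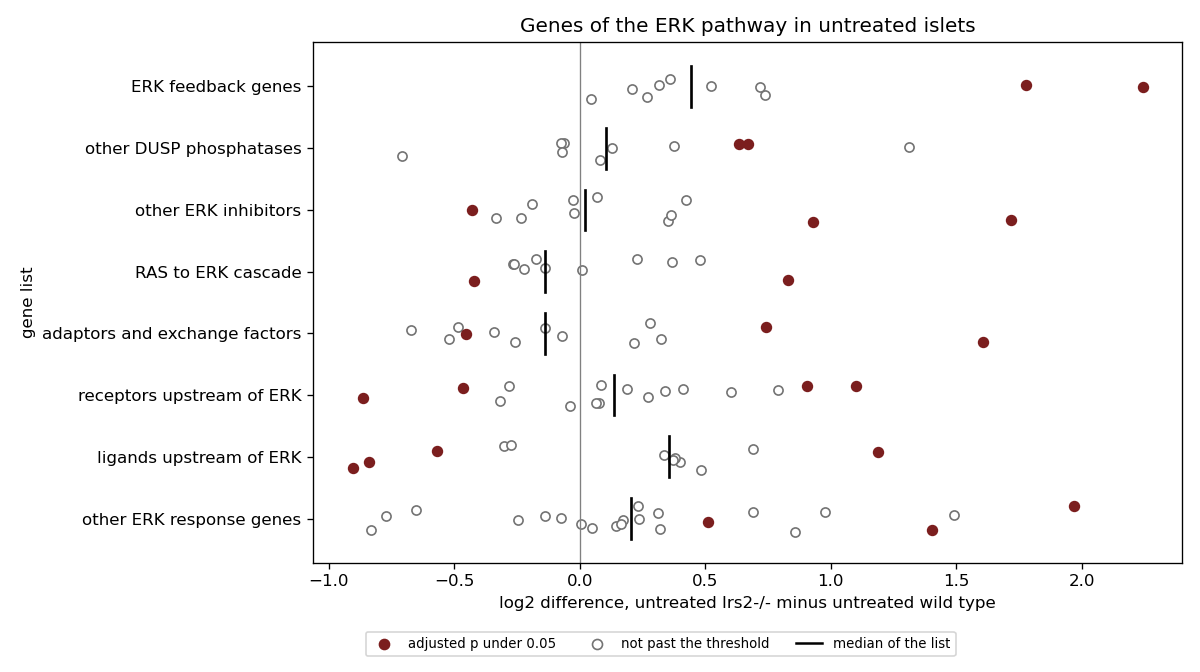
Log2 difference, untreated Irs2-/- minus untreated wild type, of each tested gene in 8 lists of ERK pathway genes. Filled points passed the adjusted threshold and vertical lines are list medians; Dusp6 and Dusp4 (2.24 and 1.78) lie at the right of the feedback genes, the other phosphatases and the other response genes hold called genes above 0 alone, and the remaining 5 lists hold them on both sides.

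Genes whose profile over the 8 arrays was most like that of the called feedback genes were taken by the smallest root mean square difference between centred log2 profiles, out of 13368 other tested genes. For Dusp6 these were Ifitm1 (0.16), Pon3 (0.17), Procr (0.21) and Kdelr3 (0.23). For Dusp4 they were Rrm2 (0.17), which is also in the proliferation marker list, Arrdc4 (0.18), Gsto2 (0.20) and Ptpn18 (0.21). All 8 were also called in untreated mice, which the choice itself favours. Dusp6 and Dusp4 were taken for their untreated genotype difference, and the profiles were not scaled, so near genes share a gap of like size. No other feedback gene was among them, and the untreated differences of the others were at most 0.74, so smaller gaps alone keep them apart in this measure.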

How the data were processed

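Total RNA of islets was hybridised as biotin-labelled cRNA to Affymetrix arrays. Per the submitters' processing notes, the authors ran RMA through affy under R 2.7.0. The deposited table gives log2 signals of all probe sets, and its 8 columns are the arrays. Scanner files and batches were not analysed here.

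After 64 control probe sets were set aside, 34945 of 45037 probe sets named 1 gene in the platform annotation used. Genes whose mean signal fell under the 40th percentile were left out of the tests. Group means were fitted with limma 3.58.1 in R 4.3.3 (lmFit and eBayes, 4 residual and 3.89 prior degrees of freedom), with Benjamini-Hochberg adjustment in each contrast. The script was tested on simulated data. The number of arrays limits the precision: a difference of 2 groups had a median SE of 0.14.

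The members, lists and rules were chosen with earlier results of these data known. Named genes are the 10 members, Irs2, the called genes of the 7 other signalling lists (or up to 3 with the smallest adjusted p), and the 4 genes nearest to each called member. A list's level on an array is the mean of its measured markers. Alternatives changed the filter, the moderation, the arrays fitted, the scaling, the probe sets, a covariate (acinar or macrophage level), the replicate block or 1 left-out array. The averaged genotype contrast and leaving out a pair of arrays together were added after the values were seen.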

Additional observations from a re-analysis of the deposited data

How the results depend on the processing

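With 2 arrays a group, many genes near the threshold change sides. Dusp4 and Dusp6 kept both their direction and their call in untreated mice under 17 and 18 of 19 alternatives. The number of the 10 genes called was 2 in untreated mice, 1 under tungstate, 0 for tungstate in Irs2-/- islets, 0 for treated Irs2-/- against untreated wild type and 6 for the averaged genotype. With the replicate block it was 4 in untreated mice, 2 under tungstate, 1 for treated Irs2-/- against untreated wild type and 8 averaged. With the macrophage covariate it was 0 in untreated mice, 0 under tungstate and 0 averaged. Without replicate 1 of both untreated groups it was 1 in untreated mice and 3 averaged. Under tungstate it was 3 at the 60th percentile, 2 with trend and robust moderation, 3 after quantile normalization and 2 with the acinar covariate. For treated Irs2-/- against untreated wild type it was 1 with trend and robust moderation and 1 after quantile normalization. Leaving out 1 array gave 2 to 4 in untreated mice, 0 to 3 under tungstate, 0 to 1 for tungstate in Irs2-/- islets, 0 to 1 for treated Irs2-/- against untreated wild type and 4 to 7 averaged. No alternative called any of the 10 for tungstate in wild type or for the interaction.

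Signs turned for small differences. In untreated mice Spred2 was -0.55 with the macrophage covariate, and Etv4 was -0.069 with the acinar covariate, -0.28 with the macrophage covariate and -0.11 to 0.20 without 1 array. For tungstate in Irs2-/- islets Spry1 was 0.061 after quantile normalization, 0.22 without the pair of arrays and -0.30 to 0.29 without 1 array. Spry4 was 0.011, 0.036 and -0.085 to 0.049 under the same settings. Spred2 was 0.12 as a mean of probe sets and 0.53 with the macrophage covariate. Etv4 was -0.068 without the pair and -0.068 to 0.24 without 1 array, and Etv5 was -0.35 with the macrophage covariate and -0.050 to 0.24 without 1 array. For tungstate in wild type Dusp4 was -0.29 to 0.049 without 1 array and Spred2 0.057 as a mean of probe sets. With the macrophage covariate the interaction was -0.24 for Spry4 and -0.087 for Etv5, and Spred2 was -0.22 averaged. Over the values of single genes, 25 alternatives turned the sign, 28 ended a call, 32 made one and 986 did neither. The causes were not tested.

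Over all genes, calls without 1 array ranged over 652 to 2639 in untreated mice (2245 with all), 3 to 679 under tungstate (137), 16 to 265 for tungstate in Irs2-/- islets (66), 0 to 9 in wild type (0), 0 to 12 for the interaction (3), 4 to 585 for treated Irs2-/- against untreated wild type (47) and 1389 to 3013 averaged (2950). Under the other alternatives the ranges were 0 to 2435, 1 to 279, 0 to 152, 0 to 5, 0 to 6, 2 to 142 and 0 to 3154 in that order. The share of higher calls for treated Irs2-/- against untreated wild type was 55.3%, and 31% after centring on the median and 68.8% after quantile normalization. The labels number the replicates alike in each group, but deviations of same-numbered arrays correlated across genes at -0.07 to 0.42 and not all over 0.1, so the pairing was not used.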
